A study of Caenorhabditis elegans with 10 samples.

Results

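The insulin-like peptide genes of Caenorhabditis elegans were read from a comparison of sorted ASH neurons with other cells. They were chosen by name, as every gene called ins with a number and daf-28, which gave 40 of the 46272 genes per the authors' deposited table. ASH is a pair of head sensory neurons that detects noxious stimuli such as high osmolarity. The worms are labelled wild type, untreated and grown on standard plates, and cells sorted for a YFP label in ASH made up 5 libraries, with YFP-negative cells as controls in the other 5. Both fractions were sorted, while no source used here gives the promoter that drove YFP, the stage of the worms or whether each library came from its own culture, so the p-values may measure a technical spread only.

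Insulin-like peptides are small secreted hormones that bind the receptor tyrosine kinase DAF-2. Agonists activate a PI3-kinase cascade that keeps the FOXO transcription factor DAF-16 out of the nucleus, which favours growth and reproduction, whereas antagonists have the opposite effect and favour the dauer larva and long life. Sensory neurons, among them the amphid neurons ASI and ASJ, and the intestine are known sources of these peptides, which are cut from precursors by proprotein convertases and released from dense core vesicles.

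Each level below is 1 FPKM value per group, which is a fragment count scaled to transcript length and library size, so no standard deviation or n belongs to it and the depth behind it is unknown. Changes are log2 fold changes of ASH over non-ASH from DESeq2, which tests read counts and was run by the authors, and its adjusted p had to be under 0.05 for a gene to count as higher or lower. Where a standard error or a 95% interval is given, it is the one implied by the deposited fold change and p under a Wald test, which is the default of DESeq2 but is stated in no source used here. For genes of low level, DESeq2's fold change can be far smaller than the ratio of the listed levels. For ins-36 the levels gave a ratio of 26.1 over 0.193 FPKM in non-ASH, while DESeq2's log2 change was 1.06, or close to 2-fold. With 1 added to both levels, the log2 ratio of ins-36 was 2.34. The intervals lie around DESeq2's value, and the reason for the gap that remains was not tested. Sequencing depth and the spread between libraries could not be read from the table. As a check of the sort, 8 of 9 tested ASH markers were higher in ASH by DESeq2 per the authors' deposited table. Cuffdiff, the authors' other tool, called 6 of the 10 listed markers higher. By either tool or at an unadjusted p under 0.05, 0 were lower. The marker list was chosen with earlier results of these data known, which limits the check. The entry named Xu.YFP was listed at 1611.6 FPKM in ASH against 68.1 in non-ASH, with a log2 change of 4.24 (DESeq2 adjusted p = 1.3e-09). It was thus detected in the YFP-negative fraction too. Intestine markers were higher for 4 of 13, and pharynx markers were lower for 4 of 7. In such sorted mixtures, fewer cells of a type and less RNA per cell cannot be told apart.

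Most of the family was detected in both fractions, and a small number of genes held most of the signal. Per the authors' deposited table, 29 of the 40 genes stood at 1 FPKM or more in ASH and 30 did so in non-ASH, and 4 were under 1 FPKM in both. The summed level was 961 FPKM in ASH against 1000 FPKM in non-ASH. The 6 most abundant genes made up 70.0% of the ASH sum and 64.3% of the non-ASH sum. The median level was 6.12 FPKM in ASH against 6.66 FPKM in non-ASH per the authors' deposited table, above the medians of all protein-coding genes at 2.47 and 2.85 FPKM. Longest transcripts of the family range from 134 to 955 bases with a median of 394, against 1154 for protein-coding genes, in the Ensembl release 115 annotation of WBcel235, so a given FPKM rests on fewer fragments than for a gene of usual length.

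The order of levels differed between the fractions at the top of the list. In ASH the authors' deposited table listed ins-28 highest at 148 FPKM, followed by ins-17 at 121, ins-14 at 117 and ins-19 at 114. Next came ins-27 at 89.3 FPKM, ins-23 at 84.1, daf-28 at 40.6 and ins-1 at 37.2 per the authors' deposited table. In non-ASH the same table of the authors had daf-28 first at 143 FPKM, then ins-28 at 135, ins-17 at 128, ins-23 at 107, ins-27 at 75.3 and ins-19 at 55.0. Thus ins-14 ranked 3 in ASH and 18 in non-ASH, and daf-28 ranked 7 in ASH and 1 in non-ASH. With 1 value per group, neighbours in either order cannot be separated from the spread between libraries.

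**Figure D1:**
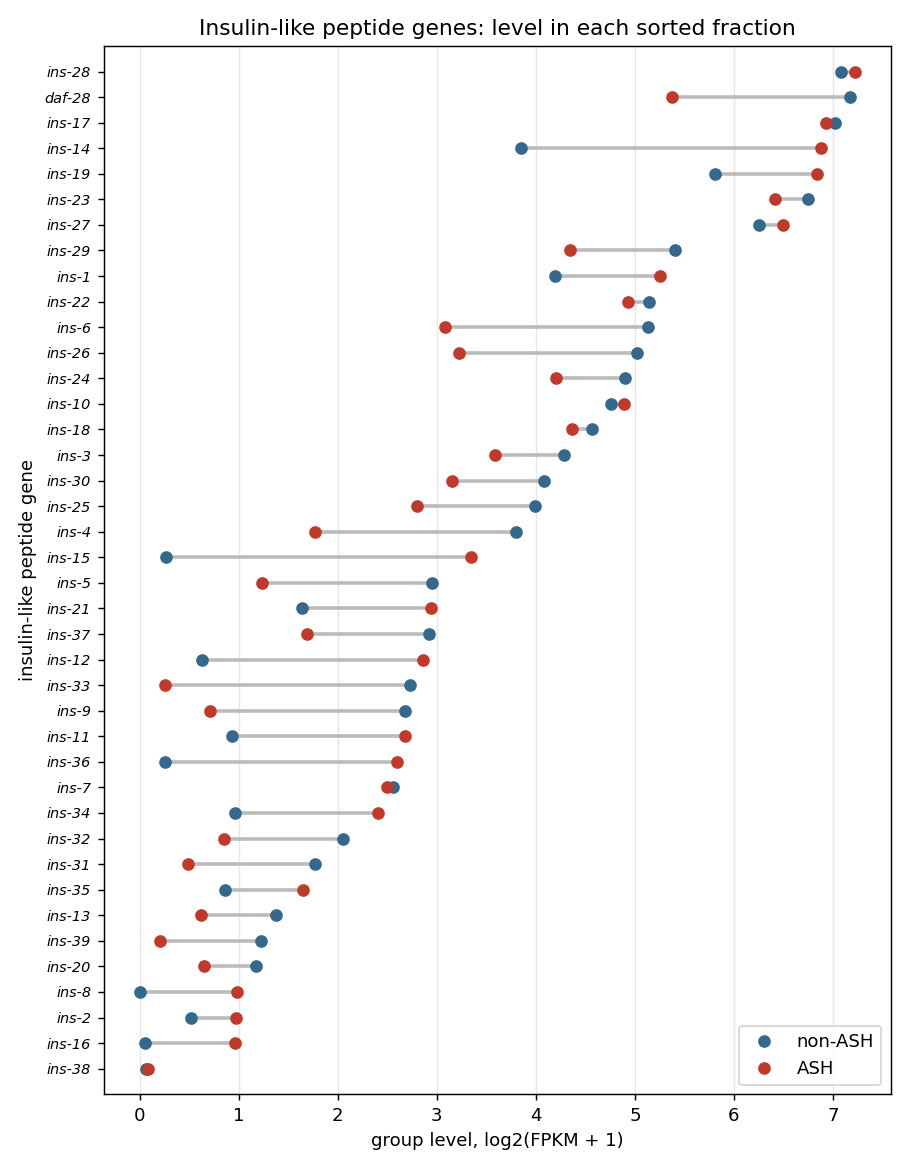
Level of each of the 40 insulin-like peptide genes in the ASH fraction (red) and the non-ASH fraction (blue), as log2(FPKM + 1) of the authors' 1 value per group, ordered by the higher value. The genes ins-28 and ins-17 lie close together in both fractions, ins-14 stands at 117 FPKM in ASH against 13.4 in non-ASH, and daf-28 at 40.6 and 143.

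Of the 33 members with a DESeq2 adjusted p, 3 were lower in ASH and 0 were higher. DESeq2 gave an adjusted p for 33 of the 40 genes, and 4.44% of all 16802 tested genes were lower and 5.32% higher. The 3 lower genes, ins-33, ins-9 and ins-4, are 9.09% of the 33, and the background share would give 1.47 genes, so the count is too small to set the family apart. At an unadjusted p under 0.05, DESeq2 had 7 of the 36 members with a p lower, or 19.4%, and 1 higher, against 10.4% lower and 9.72% higher among all 20146 genes with a p. Cuffdiff had a p under 1 for 39 members and called 1 of them higher and 3 lower at its q under 0.05. Among all 18043 genes with a Cuffdiff p under 1, the shares were 3.4% higher and 3.36% lower. The median fold change was -0.24 over the 40 genes and -0.35 over the 33 with an adjusted p, against -0.06 over all 21687 genes with a fold change and -0.09 over all tested genes. Of the 40, 23 fold changes were negative and 17 positive, and the negative share of 57.5% was near the 53.1% of all genes with a fold change. Among the 33 with an adjusted p the negative share was 66.7%, against 54.3% of all tested genes. The sign was the same by both tools for all 40. Of the remaining 7 genes, ins-8, ins-16 and ins-36 had a p and no adjusted p, and ins-12, ins-14, ins-31 and ins-38 had a fold change and no p. Among these only ins-31 had a negative fold change. An adjusted p was thus given for 11 of the 17 positive members and 22 of the 23 negative ones. The negative share among the 33 rests in part on which genes had an adjusted p.

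The largest fall belonged to ins-33, at 0.190 FPKM in ASH against 5.64 FPKM in non-ASH per the authors' deposited table. Its log2 change was -3.99, with an implied standard error of 0.79 and a DESeq2 adjusted p of 4.91e-05 per the authors' deposited table. For ins-9 the authors' deposited table listed 0.632 FPKM in ASH against 5.42 in non-ASH, with a log2 change of -2.60 (DESeq2 adjusted p = 0.0443, implied standard error 0.90). Both genes were near or under 1 FPKM in ASH, and Cuffdiff did not call them, with q of 0.294 for ins-33 and 0.471 for ins-9 per the authors' deposited table. The only member called by both tools was ins-4, where 2.29% of all genes tested by both were lower by both. It encodes a beta-type peptide known as an agonist of DAF-2 that prevents dauer entry. It stood at 2.42 FPKM in ASH against 12.9 in non-ASH, with a log2 change of -1.83 (DESeq2 adjusted p = 0.0332, Cuffdiff q = 0.0255, implied standard error 0.61) per the authors' deposited table. The stricter DESeq2 threshold of 0.01 left ins-33 alone.

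Among other members known as agonists, daf-28, ins-6 and ins-7 did not pass DESeq2's threshold. Which of the remaining members act as agonists or antagonists was not compiled here. The gene daf-28, whose peptide is made in ASI and ASJ and promotes reproductive growth, was listed at 40.6 FPKM in ASH against 143 in non-ASH per the authors' deposited table. Its log2 change was -1.55 with a DESeq2 adjusted p of 0.185, an implied 95% interval from -3.03 to -0.07 and a Cuffdiff q of 0.0118 per the authors' deposited table. So daf-28 was lower by Cuffdiff and not by DESeq2. The gene ins-6, an agonist made in the same sensory neurons and known for its part in dauer exit, had 7.44 FPKM against 34.0 and a log2 change of -1.77 per the authors' deposited table (DESeq2 adjusted p = 0.157, Cuffdiff q = 0.113). The gene ins-7, an agonist known for feedback signalling between tissues, had similar levels, with 4.64 FPKM in ASH against 4.89 in non-ASH and a log2 change of -0.32 per the authors' deposited table. Its implied interval ran from -1.57 to 0.93, which holds a change of 2-fold in the lower direction.

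Apart from daf-7, markers of ASI and ASJ were low in both fractions. Per the authors' deposited table the 5 markers summed to 7.33 FPKM in ASH against 14.8 in non-ASH, none was at 0, and 0 of the 4 tested passed DESeq2 in either direction, with 0 by Cuffdiff and 1 lower at an unadjusted p under 0.05. That gene was daf-7, the TGF-beta ligand gene of ASI, with 4.18 FPKM against 11.2 and a log2 change of -1.20 (DESeq2 adjusted p = 0.186) per the authors' deposited table. The other 4 were between 0.0737 and 1.91 FPKM in ASH and summed to 3.15 against 3.61 FPKM in non-ASH. The part of ASI and ASJ cells in the values of daf-28 and ins-6 was not tested.

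Among members known as antagonists of DAF-2, ins-1 and ins-18 showed no call. The gene ins-1, whose peptide is the most like vertebrate insulin, was listed at 37.2 FPKM in ASH against 17.3 in non-ASH per the authors' deposited table, with a log2 change of 0.92 (DESeq2 adjusted p = 0.317) and an implied interval from -0.20 to 2.04. For ins-18 the authors' deposited table had 19.6 FPKM against 22.7 and a log2 change of -0.26 (DESeq2 adjusted p = 0.798), with an implied interval from -1.37 to 0.84. A 2-fold change lies inside both intervals.

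The highest positive fold changes belonged to ins-12, ins-15 and ins-14, none of which has a DESeq2 adjusted p under 0.05. The abundant gene of the group, ins-14, stood at 117 FPKM in ASH against 13.4 in non-ASH per the authors' deposited table, a ratio of 8.71. Its DESeq2 log2 change was 2.14 without a p, below the 3.03 of Cuffdiff. Cuffdiff called ins-14 higher with a q of 0.0217 per the authors' deposited table. By default DESeq2 withholds a p where all counts are 0, which the levels of ins-14 leave out, or where a library holds an extreme count. In all, 1541 genes of the table have a fold change and no p, and counts of single libraries are not given. Its neighbour ins-15 had 9.16 FPKM in ASH against 0.201 in non-ASH per the authors' deposited table. The ratio of 45.5 rests on that low non-ASH level, and with 1 added to both levels the log2 ratio was 3.08. DESeq2's log2 change was 2.54, somewhat below that (DESeq2 adjusted p = 0.0733, implied standard error 0.97, Cuffdiff q = 0.536) per the authors' deposited table. The gene ins-15 was the nearest outside the DESeq2 threshold, and ins-9 was the nearest inside it. For ins-12 the authors' deposited table had 6.28 FPKM against 0.547, a log2 change of 2.59 without a p and a Cuffdiff q of 0.348.

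**Figure D2:**
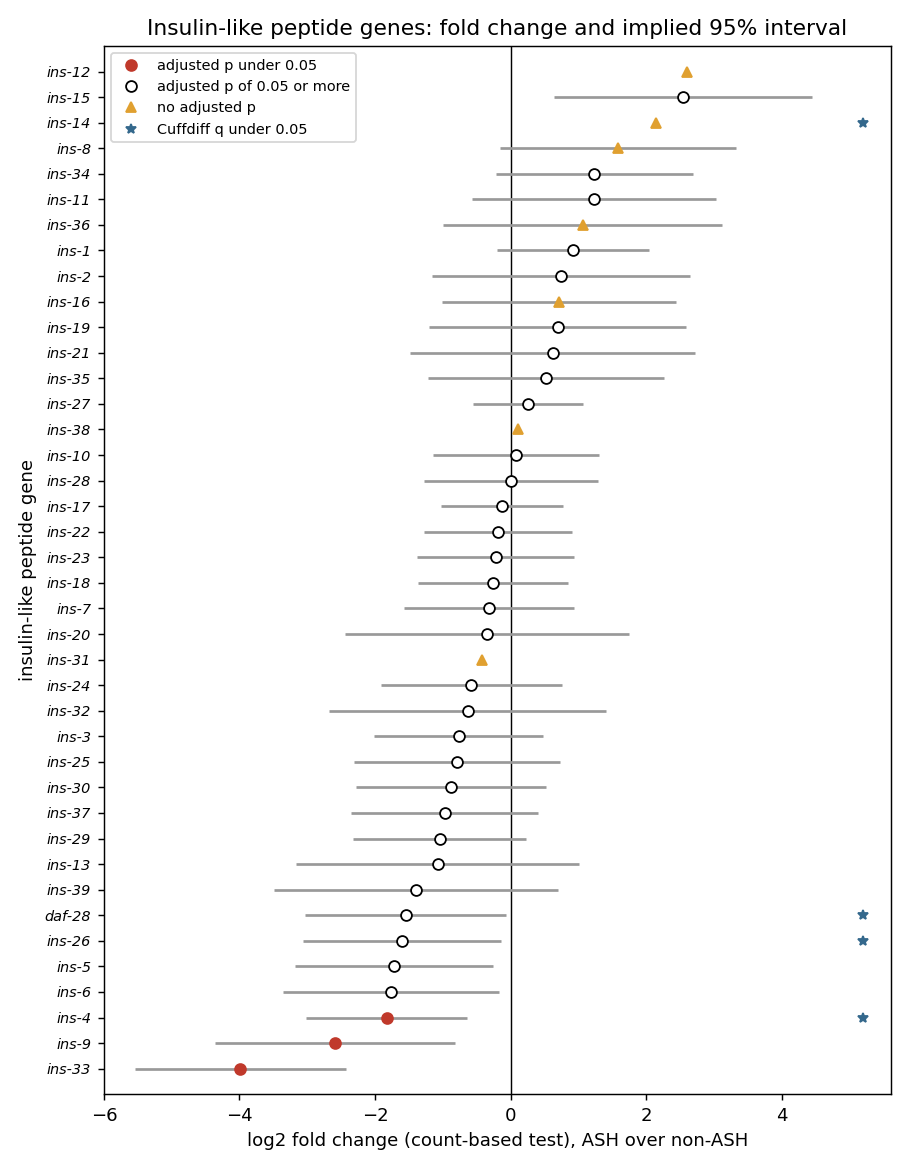
Log2 change by DESeq2, the authors' count-based test (ASH over non-ASH) of the 40 insulin-like peptide genes, with lines for the 95% interval implied by the fold change and its p, filled circles for an adjusted p under 0.05, open circles for a larger one, triangles for genes without an adjusted p and stars at the right for a Cuffdiff q under 0.05. The filled points are ins-4 at -1.83, ins-9 at -2.60 and ins-33 at -3.99, and the interval of 7 genes lies wholly below 0 and that of 1 gene, ins-15, wholly above it.

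Several of the most abundant members had similar values in both fractions. The gene ins-28 was listed at 148 FPKM in ASH against 135 in non-ASH with a log2 change of 0.00 per the authors' deposited table, with an implied interval from -1.28 to 1.28. For ins-17 the authors' deposited table gave 121 against 128 FPKM and a log2 change of -0.13, with an implied interval from -1.02 to 0.77. The narrowest interval of the family belonged to ins-27, from -0.55 to 1.07 around a fold change of 0.26, at 89.3 against 75.3 FPKM per the authors' deposited table. A 2-fold change lies inside each of these 3 intervals, so equal levels were not shown. A wider error went with ins-19, at 114 against 55.0 FPKM and a log2 change of 0.70 (DESeq2 adjusted p = 0.683) per the authors' deposited table, with an interval from -1.20 to 2.59. For ins-10 the authors' deposited table listed 28.6 against 26.0 FPKM and a log2 change of 0.08, and its gene overlaps vps-39 on the other strand in the WBcel235 annotation.

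The insulin-like genes lie in groups on the chromosomes, and the values of neighbours were compared. By the authors' deposited table, 16 members are on chromosome II, 10 on I, 5 on III, 4 on IV, 3 on V and 2 on X. In the WBcel235 annotation, 22 members fall into 8 runs with no other protein-coding gene between them. No source used here names the build of the deposited files, so the neighbourhood is described without coordinates. Family members may share reads, and how the authors' counting treated shared reads is not given, so values of close relatives are uncertain.

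The longest run, on chromosome II, holds all 5 genes that the authors' deposited table names as beta-type peptides, ins-2 to ins-6. Their median log2 change was -1.72, with ins-4, ins-5 and ins-6 at -1.83, -1.72 and -1.77 and ins-3 at -0.77, while ins-2 had 0.74 per the authors' deposited table. The adjacent genes ins-4, ins-5 and ins-6 lie on the same strand, and ins-5 was listed at 1.36 FPKM in ASH against 6.74 in non-ASH (DESeq2 adjusted p = 0.126, Cuffdiff q = 0.191) per the authors' deposited table. For ins-3 the authors' deposited table had 10.99 FPKM against 18.5 (DESeq2 adjusted p = 0.465). The summed level of the run was 23.2 FPKM in ASH against 72.6 in non-ASH. Of the 5, ins-4 passed the threshold.

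A group of genes on chromosome I, ins-24 to ins-30, forms runs of 3 with ins-28 close by. In the run of ins-24, ins-30 and ins-26 the log2 changes were -0.58, -0.88 and -1.61 per the authors' deposited table. Of these, ins-26 stood at 8.32 FPKM in ASH against 31.4 in non-ASH, and it was called lower by Cuffdiff (q = 0.0309) and not by DESeq2 (adjusted p = 0.160) per the authors' deposited table. The run's summed level was 33.6 FPKM in ASH against 76.2 in non-ASH. For ins-24 the authors' deposited table listed 17.4 against 28.8 FPKM, and for ins-30 it listed 7.89 against 15.997. In the other run, ins-29 had 19.3 FPKM against 41.3 and ins-25 5.96 against 14.9, with log2 changes of -1.05 and -0.79 per the authors' deposited table, next to ins-27 at 0.26. No member of either run passed DESeq2's threshold.

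The chromosome III run holds the 3 genes named as alpha-type, ins-21, ins-22 and ins-23, with log2 changes of 0.62, -0.19 and -0.22 per the authors' deposited table. Levels within it differed widely, with 6.70 FPKM in ASH against 2.11 in non-ASH for ins-21, 29.4 and 34.4 for ins-22 and 84.1 and 107 for ins-23 per the authors' deposited table. None had a DESeq2 adjusted p under 0.74. Positive values fell together in 2 runs on chromosome II. The pair ins-15 and ins-14 summed to 126 FPKM in ASH against 13.6 in non-ASH, and the pair ins-12 and ins-11 to 11.7 and 1.45 FPKM per the authors' deposited table. Of the latter, ins-11, known for an intestinal response to pathogens, had 5.38 FPKM against 0.903 and a log2 change of 1.23 (DESeq2 adjusted p = 0.413) per the authors' deposited table. The remaining runs are mixed in sign, with log2 changes of ins-19 at 0.70 beside ins-31 at -0.43, and ins-8 at 1.58 beside ins-7 at -0.32 per the authors' deposited table.

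**Figure D3:**
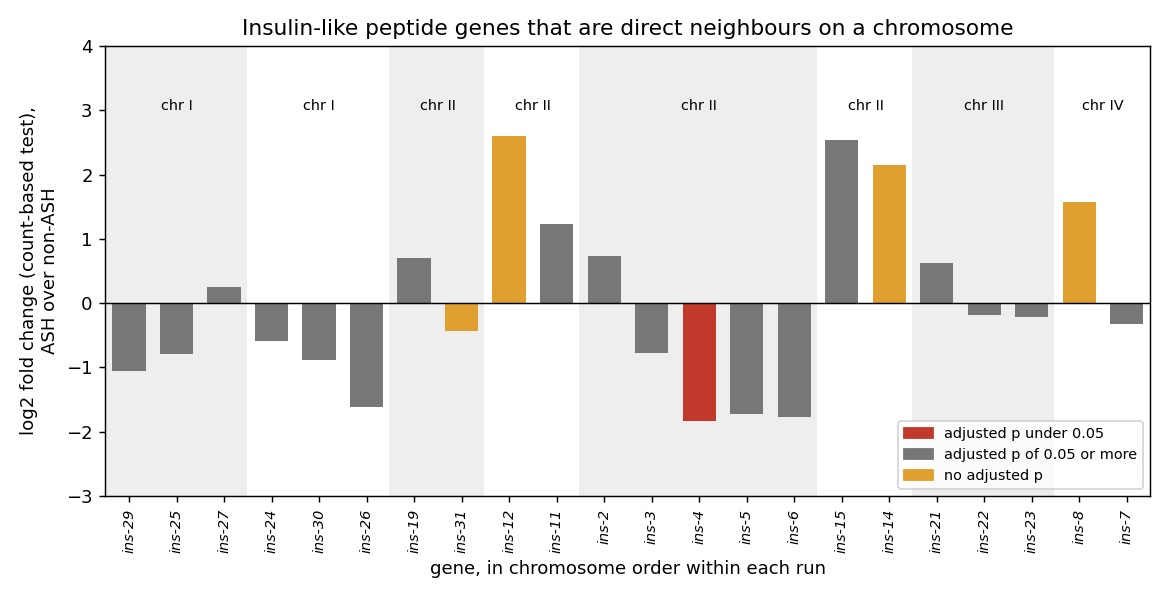
Log2 change by DESeq2, the authors' count-based test (ASH over non-ASH) of the 22 insulin-like peptide genes that are direct neighbours, in chromosome order, with shading for each of the 8 runs, red for an adjusted p under 0.05, grey for a larger one and orange for none. In the run from ins-2 to ins-6 the bars of ins-4, ins-5 and ins-6 lie between -1.83 and -1.72, and both bars of ins-15 and ins-14 are above 2.

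The members under 10 FPKM in both fractions number 21, and those not described above had no call. Of these, ins-34 had 4.29 FPKM in ASH against 0.955, ins-36 had 5.04 against 0.193 and ins-35 had 2.15 against 0.822 per the authors' deposited table. On the lower side, ins-37 had 2.23 FPKM against 6.59, ins-32 had 0.806 against 3.14 and ins-31 had 0.402 against 2.41 per the authors' deposited table. The DESeq2 adjusted p was 0.302 for ins-34, 0.397 for ins-37 and 0.733 for ins-32 per the authors' deposited table. The genes ins-2, ins-8, ins-16, ins-20, ins-13 and ins-39 were each under 1 FPKM in ASH, and ins-8 was listed at 0 in non-ASH, so no ratio was formed for it. The lowest in ASH was ins-38, at 0.0635 FPKM in ASH against 0.0422 in non-ASH per the authors' deposited table, which is a pseudogene in the WBcel235 annotation. Over the 36 members with a p, implied standard errors ran from 0.41 to 1.07 with a median of 0.75, and for 10 members the interval held a 2-fold change in both directions. Genes ins-34 and ins-36 overlap a gene on the opposite strand and ins-13 and ins-37 overlap 1 on their own strand in that annotation, and no source used here says whether the counting used strand.

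The receptor and its cascade were present in both fractions and none of the 14 genes was called by DESeq2 or by Cuffdiff, with 1 higher and 0 lower at an unadjusted DESeq2 p under 0.05. The receptor gene daf-2 was listed at 17.5 FPKM in ASH against 16.8 in non-ASH with a log2 change of 0.13 per the authors' deposited table, and the implied interval ran from -0.72 to 0.99. The FOXO gene daf-16 had 86.7 FPKM against 88.5 and a log2 change of 0.07 per the authors' deposited table, with an implied interval from -0.43 to 0.58. The intervals of daf-2 and daf-16 both leave out a 2-fold change in either direction. The ends of the list were sgk-1, a kinase gene of the cascade, at a log2 change of 1.06 (DESeq2 adjusted p = 0.129), and age-1, the catalytic PI3-kinase subunit gene, at -0.73 (DESeq2 adjusted p = 0.215), per the authors' deposited table. For the kinase genes akt-1 and akt-2 the authors' deposited table gave log2 changes of 0.04 and -0.04, and for the lipid phosphatase gene daf-18, which opposes AGE-1, it gave -0.36. The median of the list was 0.18.

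Genes that process and release peptide precursors split, with 3 of 16 higher, 1 lower and a median of 0.41, beside 5.32% higher and 4.44% lower among all tested genes. Among convertase genes, aex-5 was higher, at 337 FPKM in ASH against 74.0 in non-ASH with a log2 change of 2.08 (DESeq2 adjusted p = 0.00822, Cuffdiff q = 0.0179) per the authors' deposited table. The furin-type convertase gene kpc-1 was higher too, at 19.2 FPKM against 8.24 with a log2 change of 1.11 (DESeq2 adjusted p = 0.0153, Cuffdiff q = 0.134) per the authors' deposited table. The convertase gene egl-3, the PC2 homolog, had 232 FPKM against 130 and a log2 change of 0.82 (DESeq2 adjusted p = 0.388), and bli-4 had 51.5 FPKM against 68.7 and a log2 change of -0.32 per the authors' deposited table. The third higher gene was unc-31, the CAPS homolog needed for dense core vesicle release, at 35.6 FPKM against 2.15 with a log2 change of 3.82 (DESeq2 adjusted p = 1.2e-06) per the authors' deposited table. The lower gene was cpd-2, named for carboxypeptidase D, at 5.24 FPKM against 20.9 with a log2 change of -1.80 (DESeq2 adjusted p = 0.0362, Cuffdiff q = 0.00871) per the authors' deposited table. The carboxypeptidase E gene egl-21 was called higher by Cuffdiff (q = 0.00762) and not by DESeq2, with 491 FPKM against 169 and a log2 change of 1.41 (adjusted p = 0.0958) per the authors' deposited table. Pan-neuronal genes had 0 of 12 called in either direction by either tool, with 1 higher and 0 lower at an unadjusted DESeq2 p under 0.05.

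Of 15 genes known to be activated by DAF-16, 14 had a DESeq2 adjusted p, 2 were higher and 1 was lower, beside the same 5.32% and 4.44%. The gene dod-3 was higher at 367 FPKM against 47.5 with a log2 change of 2.64 (DESeq2 adjusted p = 0.0167), and the desaturase gene fat-7 at 30.3 FPKM against 9.003 with a log2 change of 1.54 (DESeq2 adjusted p = 0.0482), per the authors' deposited table. The superoxide dismutase gene sod-3, a common reporter of DAF-16 activity, was lower, at 3.27 FPKM against 24.9 with a log2 change of -2.55 (DESeq2 adjusted p = 0.00163, Cuffdiff q = 0.00464) per the authors' deposited table. Cuffdiff also called the metallothionein gene mtl-1 higher, at 912 FPKM against 224 (q = 0.00186), and the catalase gene ctl-2, at 54.9 against 21.2 (q = 0.0376), where DESeq2 had adjusted p of 0.136 and 0.168 per the authors' deposited table. The median of the list was 0.91 and 14 of the 15 fold changes were positive, against 45.5% of all genes with a fold change. The intestine marker list, of which fat-7 is also a member, had 4 of 13 genes higher by DESeq2, 0 lower and a median of 1.54. The actin gene act-5 of that list was lower by Cuffdiff (q = 0.0213) and had a DESeq2 adjusted p of 0.186 (0.0406 unadjusted) per the authors' deposited table. Its 13 genes summed to 7726 FPKM in ASH against 2093 in non-ASH per the authors' deposited table, with single genes from 0.573 to 3660 FPKM in ASH and none at 0. The part of intestinal RNA in the values of these targets and of ins-11 and ins-7 was not tested.

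Markers of other tissues that the fractions could hold differed in direction. Pharynx markers had 4 of 7 lower, 0 higher by either tool or at an unadjusted DESeq2 p under 0.05, and summed levels of 39.6 FPKM in ASH against 297 in non-ASH per the authors' deposited table. Epidermis markers had 3 of 9 lower and 1 higher with a median of -0.91. Their sums of 822 and 767 FPKM were mostly col-19, a cuticle collagen gene, and the other 8 summed to 30.7 FPKM in ASH against 55.7 in non-ASH. Body wall muscle markers had 1 of 7 higher and 0 lower by either tool or unadjusted, with sums of 1333 and 945 FPKM. Germline markers had 0 of 6 called by either tool, with 1 lower at an unadjusted DESeq2 p under 0.05, and sums of 858 and 1044 FPKM. Markers of other sensory neurons had 0 of 9 tested called by either tool and 1 of 14 higher at an unadjusted p under 0.05, with sums of 9.89 and 17.6 FPKM, or 4.01 and 4.32 without odr-10, and with str-1 and srh-220 listed at 0 in ASH. Their part in the values of ins-33, ins-9 and ins-4 was not tested.

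**Figure D4:**
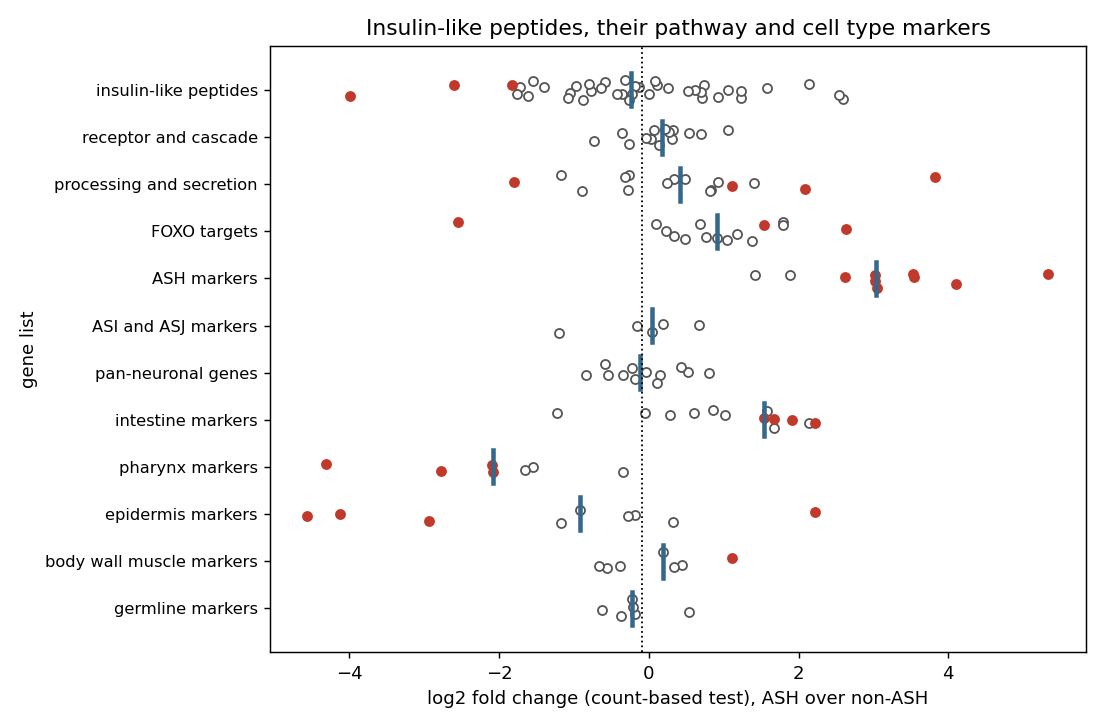
Log2 change by DESeq2, the authors' count-based test (ASH over non-ASH) of single genes in the insulin-like peptide family, the pathway lists and the marker lists, with filled points for an adjusted p under 0.05, blue bars for list medians and a dotted line for the median of all tested genes at -0.09. The 14 cascade genes lie between -0.73 and 1.06 around a median of 0.18, the family spreads from -3.99 to 2.59, and the pharynx markers have a median of -2.08.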

How the data were processed

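Sorted cells gave strand-specific, poly(A)-selected libraries, per the labels' protocols, and grouped by their titles into 5 ASH and 5 non-ASH libraries. Per the submitters' processing notes, reads went through TopHat2 2.0.13 with Bowtie2 2.2.1, then Cufflinks with Cuffdiff, and HTSeq with DESeq2. Neither a genome build nor model settings are given there. The authors' deposited table has 46273 rows, of which 1 repeat was dropped. Its group values are FPKM with 1 added by the authors, which was subtracted here. Deposited log2 fold changes come from both tools of the authors: those of Cuffdiff, equal to the log2 ratio of the group values with the added 1, and those fitted by DESeq2. Each tool's p-values and q-values are deposited too. The authors' DESeq2 adjusted p matches a Benjamini-Hochberg adjustment over 16802 genes. Cuffdiff's q does not equal such an adjustment over the 18043 genes with a p under 1: at the smallest p of 5e-05 the authors' deposited table has q = 0.00101 where the adjustment gives 0.00267, and over which tests it was made is not given.

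Differential expression was not tested here, since the table holds no values of single libraries, and the tests planned on such values could not be run. Standard errors were derived as the size of the fold change over the normal quantile of p. Neighbours and overlaps came from the Ensembl release 115 annotation of WBcel235, and 39 of the 40 identifiers had a current symbol. By the rule for named genes, all members are named, with values for those past either tool's threshold or at 10 FPKM or more, and so are the pathway list genes past either threshold. Marker lists are given by counts. The members and lists were chosen with earlier results of these data known. Alternatives were an adjusted p under 0.01, a 2-fold change, Cuffdiff's q, both tools, floors of 1 and 5 FPKM, current symbols, and pseudocounts of 0.1 and 5. The counting was tested on simulated data with large planted changes. That checks the coding of the rules and not the calls in these data. Python 3.11.15, pandas 2.3.3 and scipy 1.17.1 were used.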

Additional observations from a re-analysis of the deposited data

How the results depend on the processing

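The count of 3 members lower in ASH was the same with a 2-fold change as well, with floors of 1 and 5 FPKM, with current symbols and with Cuffdiff's q, although Cuffdiff's 3 were daf-28, ins-26 and ins-4. It was 1 at an adjusted p under 0.01 (ins-33) and 1 for genes called by both tools (ins-4). The count of 0 members higher became 1 with Cuffdiff's q (ins-14) and was 0 under the other settings. In the pathway lists, an adjusted p under 0.01 left 0 lower genes for processing and release and 0 higher DAF-16 targets, and Cuffdiff's q gave 4 higher DAF-16 targets. Other list counts stayed within 1.5 times. For 21 members, FPKM ratios were also formed with pseudocounts of 0.1 and 5 in place of 1. They are those past either tool's threshold or at 10 FPKM or more, so ins-15 and ins-36 were left out. The ratios of the 21 never changed sign, and 5 ratios of 3 genes, ins-4, ins-9 and ins-33, moved by over 1.5 times. No paired analysis was possible because the table holds 1 value per group, and leaving out single libraries was not run for the same reason. Depth is unknown, and the implied intervals of 10 members hold a 2-fold change in both directions.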

Other observations

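A related gene family was looked at after its values were seen. The irld genes encode proteins with the ligand-binding L domain of insulin and EGF receptors, and 66 of them are in the authors' deposited table, 56 of these under 1 FPKM in both fractions. Of 15 tested, 3 were higher in ASH and 0 lower by DESeq2, with 2 lower at an unadjusted p under 0.05 and 0 lower by Cuffdiff, against 5.32% and 4.44% of all tested genes. The authors' deposited table listed irld-11 at 15.1 FPKM in ASH against 0.335 in non-ASH, a log2 change of 4.10 (DESeq2 adjusted p = 0.00136, Cuffdiff q = 0.224). For irld-34 the authors' deposited table had 9.57 FPKM against 0.666 and a log2 change of 3.36 (DESeq2 adjusted p = 0.000751, Cuffdiff q = 0.00101), and for irld-2 it had 7.66 against 0.00489 and a log2 change of 2.56 (DESeq2 adjusted p = 0.0305, Cuffdiff q = 0.00925). The median over the 15 was -0.77, with 11 of the fold changes negative.

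The last column of the authors' deposited table, which repeats DESeq2's adjusted p in part, is blank for ins-9 and ins-33, the members called by DESeq2 and not by Cuffdiff.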
